A study of Mus musculus with 768 samples.

Results

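The genes described here encode proteins of the compact myelin of peripheral nerve, read in single Schwann cells of the mouse sciatic nerve at postnatal day 5. They were chosen by name, as 6 of the 25700 genes of the table: Mbp, Pmp22, Mal, Pmp2, Gm37389 and Ncmap. Each was found by its Ensembl identifier in GENCODE vM21, and all 6 were present. Pmp2 and Gm37389 overlap on the same strand and were treated as 1 locus, which leaves 5 loci. The label compact myelin does not hold for every member by name, since Ncmap stands for noncompact myelin associated protein, and the only transcript of Gm37389 is annotated as a target of nonsense-mediated decay.

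Mbp (ENSMUSG00000041607) lies on chromosome 18 at 82475146 to 82585637 on the plus strand, and Pmp22 (ENSMUSG00000018217) on chromosome 11 at 63128982 to 63159547 on the plus strand. Mal (ENSMUSG00000027375) lies on the minus strand of chromosome 2, at 127633226 to 127656695, and Ncmap (ENSMUSG00000043924) on the minus strand of chromosome 4, at 135369576 to 135398227. Pmp2 (ENSMUSG00000052468) spans 10179851 to 10183929 on the minus strand of chromosome 3, inside Gm37389 (ENSMUSG00000103124), which reaches from 10179852 to 10197262. All coordinates are of GRCm38. Pmp2 and Gm37389 shared 1224 exonic bases, 86.9% of those of Pmp2. Gm37389 never exceeded Pmp2 in any of the 768 wells and its reads were 91.7% of those of Pmp2, so its own expression cannot be told apart from that of Pmp2.

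Cells came from pups that carried a beta-actin dsRed transgene and expressed eYFP after Cre-mediated recombination in the Schwann cell lineage, and single eYFP-positive cells were collected by flow cytometry. Smart-Seq2, a protocol that reads the full length of transcripts, was run on 2 plates, each with 384 wells. Each plate held pooled cells of male and female mice in equal parts and is 1 biological replicate, so n = 2 plates throughout and wells are not replicates. All cells belong to 1 group, with no other genotype, age or treatment. There were 655 wells with 1500 or more detected genes outside the 4 corner wells of each plate, 325 in plate 1 and 330 in plate 2.

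Compact myelin is the stack of tightly apposed membrane that a Schwann cell wraps around a large axon. Mbp encodes myelin basic protein, which lies on the cytoplasmic face of the membrane and holds adjacent layers together. Pmp22 encodes a tetraspan membrane protein whose gene dosage is known to matter in inherited neuropathy. Mal encodes a proteolipid of lipid rafts that takes part in membrane trafficking, and Pmp2 a small fatty acid binding protein of the myelin membrane. Schwann cells in early postnatal nerve pass from an immature state (iSC), through a pro-myelinating state, to the myelinating state (mSC). Other immature cells instead mature into non-myelinating (Remak) Schwann cells.

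Retained wells held a median of 582414 reads assigned to genes (range 3306 to 2495101), and 22 of them held fewer than 100000. The median number of genes was 3320 in plate 1 and 3621 in plate 2. Of 5 genes of all Schwann cells (Sox10, S100b, Erbb3, Cdh19, Foxd3), at least 1 reached 5 reads in 97.2% and 99.4% of wells, and at least 3 did in 392 of 655 wells. Markers of endothelial cells, immune cells, pericytes, neurons and muscle gave no well with 3 or more of 5 genes at 5 reads, which allows up to 0.458% of wells, and fibroblast markers gave 21 wells. At least 1 of 5 markers reached 5 reads in 611 wells for fibroblasts, 197 for endothelial cells, 131 for pericytes, 53 for immune cells, 49 for neurons and 5 for muscle. Protocols without molecular identifiers count reads, not molecules, so all intervals below cover counting error only.

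Promoter sequences are shown for the members that rose most steeply between cell states and could be found, Ncmap and Pmp22, and for Mal, the member that rose least. Each runs from 250 bases before to 50 bases after the outermost annotated start, from RefSeq (GRCm38.p6), and is written along the strand of the gene. Reads were counted per gene, so the start site in use was not seen. Capitals mark matches, on either strand, to short motifs that were searched: ACAAAG and ACAAT (SOX cores), GCGTGGG (EGR core), GGGCGG (GC box), TATAAA and CCAAT.
Ncmap, chr4:135398178-135398477, minus strand: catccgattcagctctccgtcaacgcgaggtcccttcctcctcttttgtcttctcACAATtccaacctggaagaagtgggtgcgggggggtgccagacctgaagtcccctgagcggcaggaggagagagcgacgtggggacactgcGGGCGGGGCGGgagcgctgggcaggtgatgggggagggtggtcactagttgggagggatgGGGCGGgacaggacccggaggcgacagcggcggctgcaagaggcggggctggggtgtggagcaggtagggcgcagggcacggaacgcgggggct
Pmp22, chr11:63128732-63129031, plus strand: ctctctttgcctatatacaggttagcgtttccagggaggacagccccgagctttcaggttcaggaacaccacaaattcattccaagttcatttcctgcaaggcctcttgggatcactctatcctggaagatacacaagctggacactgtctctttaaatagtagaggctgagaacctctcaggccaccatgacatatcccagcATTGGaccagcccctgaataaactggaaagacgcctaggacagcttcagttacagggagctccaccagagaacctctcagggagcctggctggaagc
Mal, chr2:127656646-127656945, minus strand: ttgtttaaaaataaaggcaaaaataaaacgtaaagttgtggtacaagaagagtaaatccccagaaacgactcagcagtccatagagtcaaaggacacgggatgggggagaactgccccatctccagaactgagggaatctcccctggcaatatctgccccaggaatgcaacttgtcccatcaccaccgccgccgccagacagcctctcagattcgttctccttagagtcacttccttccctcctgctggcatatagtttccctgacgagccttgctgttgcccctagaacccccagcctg
The Ncmap window held ACAAT starting 195 bases before the start site, and GGGCGG starting 104, 99 and 44 bases before it, the first pair overlapping. The Pmp22 window held 1 match, to CCAAT on the opposite strand, starting 47 bases before the start site. None of the 6 motifs matched in the Mal window. Only 1 window per gene is shown, of 4 found for Pmp22, 2 for Ncmap and 1 for Mal. The Ncmap window not shown held GCGTGGG starting 35 bases before its start site, besides ACAAT and CCAAT. Among the Pmp22 windows not shown, windows 2 and 4 by position held GGGCGG. Among all 32851 promoters of this length, 31.0% held ACAAT, 35.7% GGGCGG and 37.4% CCAAT, against 18.7% for ACAAAG, 5.04% for GCGTGGG and 13.6% for TATAAA. The matches in the windows shown are therefore common. All matches describe the letters only.

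The first question was how much of a cell's RNA these loci make up. Mbp took 3.09% of the reads of plate 1 and 2.93% of plate 2, a mean of 3.01% ± 0.113 (SD, n = 2). Pmp22 took 3.37% and 3.22%, a mean of 3.29% ± 0.104. The other loci took about an order of magnitude less. Mal made up 0.335% ± 0.0170 of reads, Ncmap 0.230% ± 0.00473 and the Pmp2 locus 0.163% ± 0.00790, read from the Pmp2 row. The largest gap between plates was that of Mal, whose share in plate 2 was 0.931 of that in plate 1.

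Single cells spanned a far wider range than the plate means. The 5 loci together took a median of 2.81% of a well's reads in plate 1 and 2.27% in plate 2, with extremes of 0.0579% and 23.4%. They exceeded 10% of reads in 79 wells of plate 1 and 91 of plate 2, or 26.0% of all. In the highest wells Mbp reached 11.9% of reads, Pmp22 11.5%, the Pmp2 locus 2.35%, Mal 1.36% and Ncmap 1.26%.

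Per kilobase of exon, averaged over wells on CPM (reads of a gene out of all reads of the well, scaled to 1000000), Pmp22 was highest at 10975 ± 297 (SD, n = 2 plates). Mbp followed at 2897 ± 7.87, then Mal at 1071 ± 24.1. Pmp2 at 880 ± 85.3 and Ncmap at 862 ± 23.9 did not differ beyond the spread of the plates. The length of Mbp is uncertain, since its exons join to 8469 bases over all annotated transcripts, but the median coding transcript has 1934.5. Scaled by that median transcript, Mbp stood at 12684 ± 34.5 and Pmp22 at 20398 ± 552, so the order of these neighbours held. Ncmap then stood at 1326 ± 36.7, above Pmp2 at 880.

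A second question was in which cells each locus was on, taken as 100 CPM or more. Mbp was on in 99.1% of wells of plate 1 (95% exact interval 97.3 to 99.8) and 99.4% of plate 2 (97.8 to 99.9). Pmp22 was on in 99.7% and 98.8% of wells, and Mal in 95.7% and 99.4%. These loci were therefore read in nearly every sorted cell. Ncmap was on in only 55.4% (49.8 to 60.9) and 55.2% (49.6 to 60.6) of wells, and the Pmp2 locus in 41.8% (36.4 to 47.4) and 43.3% (37.9 to 48.9). The 14 wells of plate 1 and 2 wells of plate 2 in which Mal was below 100 CPM are the largest gap between plates among the 5 loci.

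**Figure D1:**
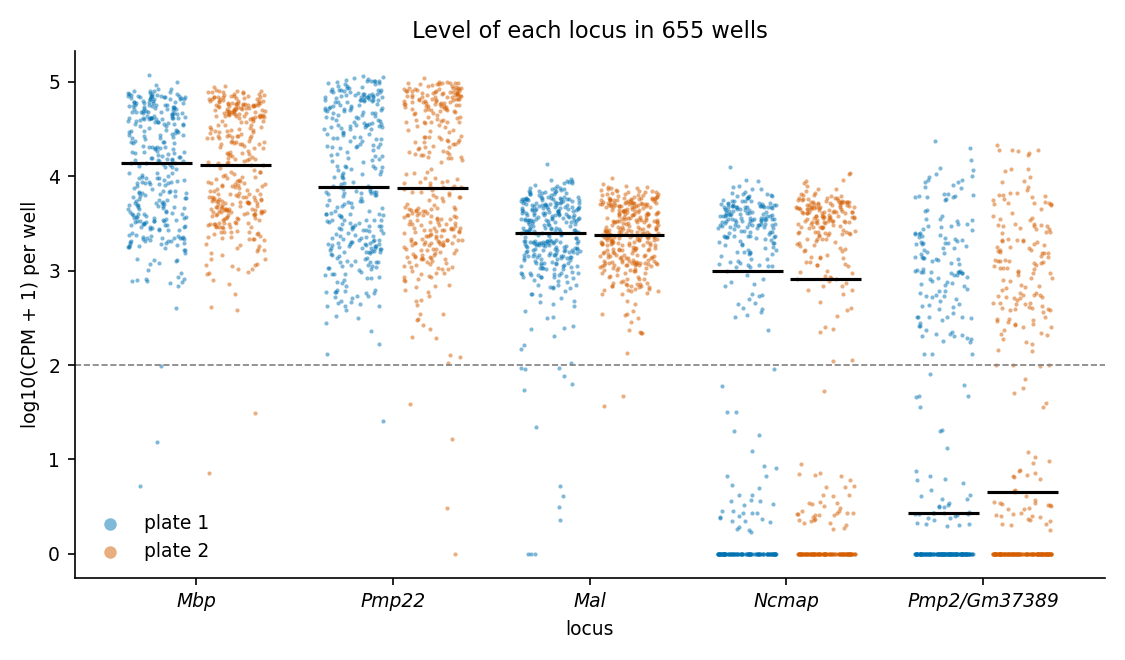
Level of each locus in every retained well, as log10(CPM + 1) on the vertical axis, for plate 1 (325 wells, blue) and plate 2 (330 wells, orange). Black bars are medians and the dashed line marks 100 CPM. Mbp, Pmp22 and Mal form a single broad cloud, while Ncmap and the Pmp2 locus split into wells near 0 and wells above 100 CPM.

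The loci differed in whether cells filled the range between off and on. For Ncmap, 288 wells lay below 20 CPM, 23 between 20 and 500 CPM and 344 at 500 CPM or more. Only 3.51% of wells were thus at an intermediate level, 4% in plate 1 and 3.03% in plate 2. The Pmp2 locus was less sharply split, with 361, 82 and 212 wells in these ranges. Of the 293 wells with Ncmap off, 218 had no read of it and 285 stayed under 10 CPM. Corner wells had 0 Ncmap reads among 158513, which allows up to 18.9 CPM. Their sums for Mbp and Pmp22 were 132 and 290 CPM, on 21 and 46 reads, above the limit of 100 CPM. The highest corner well had 470 CPM of Mbp and 3526 CPM of Pmp22. Among retained wells, 647 had 500 CPM or more of Mbp and 622 of Pmp22.

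Once on, the loci differed in spread. Over the wells in which each was on, the upper quartile was 2.35 times the lower for Ncmap, 3.29 times for Mal, 5.89 times for the Pmp2 locus, 10.9 times for Mbp and 24.2 times for Pmp22. These are different wells for each locus. In the same 362 wells with Ncmap on the ratio was 2.00 for Mal, 2.35 for Ncmap, 2.72 for Mbp and 4.13 for Pmp22. Of Mal, Ncmap, Mbp and Pmp22, the widest range on either basis was that of Pmp22. The Pmp2 locus was not compared in those 362 wells. In the 262 wells with both Ncmap and Pmp2 on, the quartiles of Pmp2 were 548 and 3454 CPM. Those of Pmp22 there were 25887 and 72879 CPM, a narrower range relative to its level. Over all wells with it on, Pmp22 ran from a lower quartile of 2020 CPM to an upper quartile of 48925 CPM over both plates. Its median was 7627 CPM in plate 1 and 7456 CPM in plate 2. Mbp ranged over quartiles of 3990 and 43609 CPM in the wells that had it on, and Mal over 1373 and 4514 CPM.

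The order of onset was read from cells in which 1 locus was on while another was off. All cells were of the same age, and those with a locus off need not all be on the way to turning it on. In 262 of 655 wells all 5 loci were on, and in 257 only Mbp, Pmp22 and Mal were. A further 99 wells had these and Ncmap, whereas 14 had these and Pmp2 without Ncmap. Together, 96.6% of wells in plate 1 and 97.9% in plate 2 fitted a nested order in which Ncmap follows Mbp, Pmp22 and Mal, and Pmp2 follows Ncmap. At this limit Mbp and Pmp22 were each off in only 5 wells and Mal in 16. Nearly any well therefore fits the place of Ncmap after them, and these shares cannot show that part of the order.

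Ncmap was on without Pmp2 in 54 wells of plate 1 and 46 of plate 2, while the reverse was seen in 10 and 7 wells. Few wells of either plate had Mbp, Pmp22 or Mal off. Across both plates no well had Ncmap on with Mbp or Pmp22 off, and 1 had it on with Mal off. The exceptions deserve a description. Of the 17 wells with Pmp2 on and Ncmap off, 13 had no Ncmap read, and their Pmp2 level lay between 187 and 1077 CPM, below the median of 1474 CPM in wells with both on. One of the 17 was the shallowest retained well, with 3306 reads of which 3 were from Pmp2, and 16 had 100000 reads or more.

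With 100 CPM as the limit, the graded loci were almost always on, and their order could not be read: Mbp was on without Pmp22 in 1 and 3 wells, and the reverse held in 3 and 1. An alternative limit was set for each locus at 5% of its own 95th percentile. This put the limit at 3559 CPM for Mbp, 4370 CPM for Pmp22 and 343 CPM for Mal. The order was then Mal, Mbp, Pmp22, Ncmap, Pmp2 in both plates, and 93.8% and 92.7% of wells fitted it. Mal passed its limit in 92.9% and 96.7% of wells, Mbp in 75.4% and 80.9%, and Pmp22 in 58.2% and 57.3%. Mbp was past its limit without Pmp22 in 58 and 81 wells, compared with 2 and 3 in reverse. Pmp22 and Ncmap were close neighbours, with 17 and 21 wells for Pmp22 alone and 7 and 9 for Ncmap alone. This order depends on the limit, since a graded locus has no natural off state. Over both plates, Mbp was past its relative limit without Mal in 10 wells and the reverse held in 119. With 500 CPM as the limit for every locus these counts were 39 and 4, so the order of Mal and Mbp was reversed.

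Ncmap and Pmp2 were on in cells with high levels of the graded loci. In wells with less than 1000 CPM of Pmp22, Ncmap was on in 5.13% of wells of plate 1 and 5.88% of plate 2. Between 3000 and 10000 CPM of Pmp22 the share was 38.6% and 38.5%, and between 10000 and 30000 CPM it was 95.7% and 97.4%. All 221 wells above 30000 CPM of Pmp22 had Ncmap on, 108 in plate 1 and 113 in plate 2. For the Pmp2 locus the shares in the last 3 of these ranges were 15.8% and 18.5%, 65.2% and 82.1%, and 85.2% and 84.1%. The share with Pmp2 on thus stayed below that with Ncmap on in these ranges, and did not reach all of them.

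**Figure D2:**
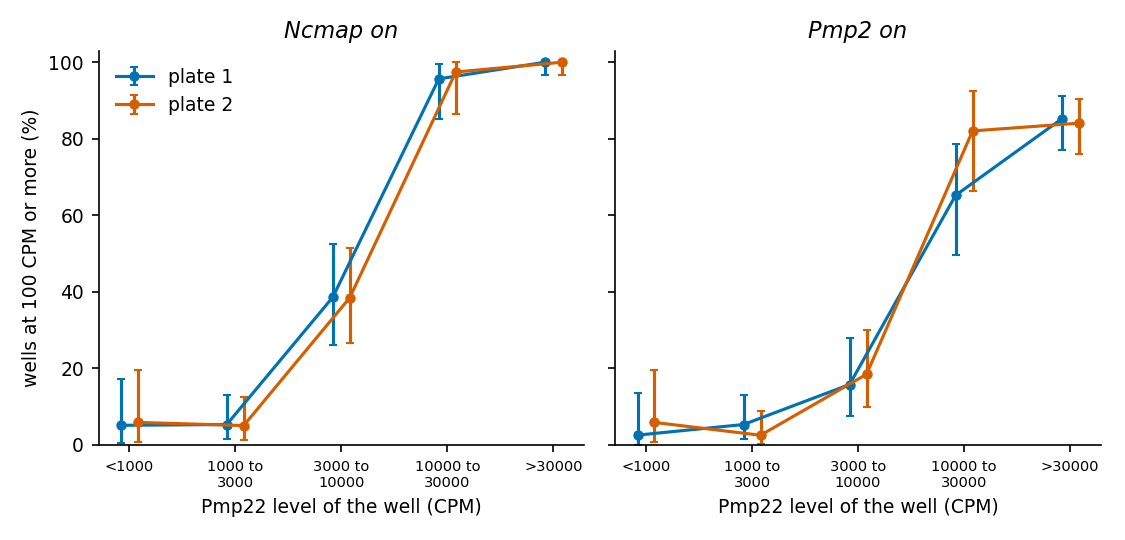
Share of wells with Ncmap (left) or the Pmp2 locus (right) at 100 CPM or more, in percent, by the Pmp22 level of the well in CPM, for plates 1 and 2. Bars are 95% exact binomial intervals over wells. Ncmap passes from 5.33% and 5.06% of wells at 1000 to 3000 CPM of Pmp22 to 100% above 30000 CPM, and Pmp2 reaches 85.2% and 84.1%.

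The level of the graded loci was set side by side in wells with neither, 1 or both of Ncmap and Pmp2 on. Median Pmp22 was 1753 and 1943 CPM (plates 1 and 2) with neither on, 13256 and 14636 CPM with Ncmap alone, and 49912 and 51124 CPM with both. Median Mbp was 3336 and 3927 CPM, then 20060 and 19265 CPM, then 46640 and 44610 CPM. Both loci were thus several-fold higher where Ncmap was on, and higher again where Pmp2 was also on, on each plate. Between the first pair of classes Pmp22 differed by 7.56-fold and 7.53-fold, Mbp by 6.01-fold and 4.91-fold, and Mal by 2.05-fold and 2.36-fold. From Ncmap alone to both, the folds were 3.77 and 3.49 for Pmp22, 2.33 and 2.32 for Mbp, and 1.59 and 1.43 for Mal. Median depth moved in the same direction, from 506496 and 429959 reads in wells with neither on to 780116 and 699410 with both. The part of depth in these levels was not tested. In the 633 wells with at least 100000 reads, each thinned to that number, Ncmap was on in 55.8% and Pmp2 in 43.9%. The levels of the graded loci by class were not compared at that depth.

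Relative to the other graded loci, Pmp22 was higher in cells with Ncmap on. In wells with Ncmap off, the median ratio of Mbp reads to Pmp22 reads within a cell was 1.75 in plate 1 and 1.88 in plate 2. With Ncmap on it was 1.03 and 1.00. For Mal reads over Pmp22 reads the medians were 0.655 and 0.640 with Ncmap off, and 0.103 and 0.0962 with it on. These ratios are of reads, not corrected for length, and compare classes of cells, not genes.

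**Figure D3:**
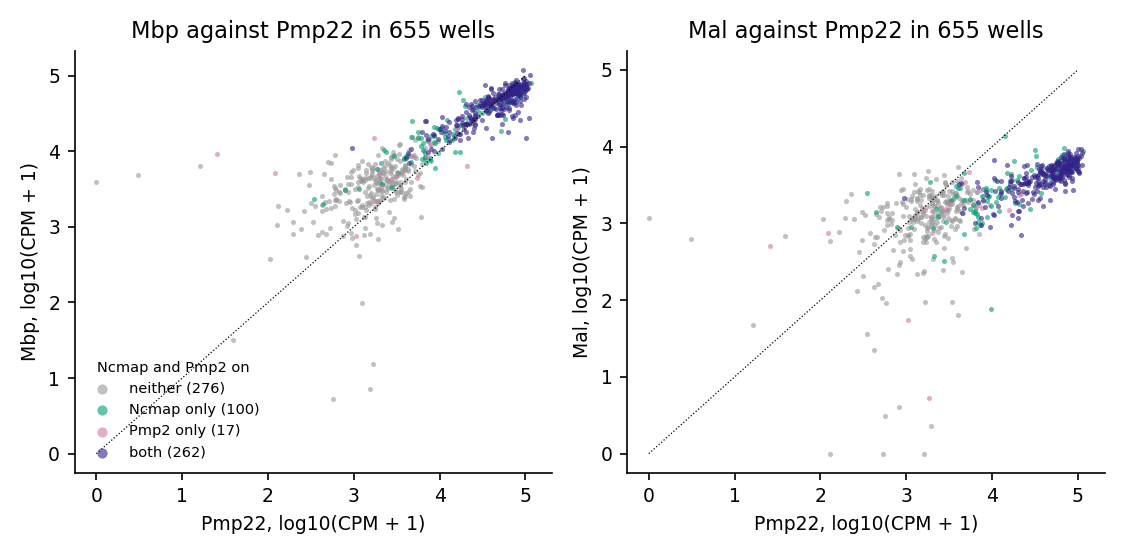
Mbp (left) and Mal (right) against Pmp22 in 655 wells, all axes log10(CPM + 1), coloured by which of Ncmap and Pmp2 were on, with the number of wells in the key. The dotted line is equal CPM. The 276 wells with neither on lie mostly above the line for Mbp, and the 262 wells with both on lie at the upper right, far below the line for Mal.

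Co-variation over wells was described with Spearman's rho of CPM within each plate, with no p, since wells of a plate share animals, handling and depth. Mbp and Pmp22 were most alike, at rho = 0.932 over 325 wells and 0.909 over 330. The median over the 10 pairs of loci was 0.774 and 0.799, and the lowest pair was Mal with Pmp2, at 0.557 and 0.586. The relations among the graded loci were weaker in wells with Ncmap off. There rho was 0.582 and 0.444 for Mbp with Pmp22, 0.464 and 0.387 for Mbp with Mal, and 0.424 and 0.419 for Pmp22 with Mal. In wells with Ncmap on these pairs stood at 0.864 and 0.842, 0.704 and 0.758, and 0.754 and 0.798. Ncmap itself was weakly related to Pmp2 among wells with Ncmap on, at 0.165 and 0.166. Pearson's r of log2(CPM + 10) for Mbp and Pmp22 was 0.887 and 0.870. Each locus was also related to the number of genes detected in a well, with rho between 0.320 and 0.554.

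The genes most like each locus were found among 6171 genes with a read in at least 20% of wells, by the lower of the rho values of the 2 plates. The ranking leaves out the members themselves and items that are not reported here. Prx, which encodes the sheath protein periaxin, was among the 3 most like for Mbp (0.804), Pmp22 (0.815), Mal (0.684) and Ncmap (0.793). Emid1 was among the 3 for Mbp (0.809), Pmp22 (0.798), Ncmap (0.777) and Pmp2 (0.683). The third gene was Utrn, for the dystrophin relative utrophin, for Mbp (0.777), the tetraspanin gene Cd9 for Pmp22 (0.783), and the cell cycle inhibitor gene Cdkn1a for Ncmap (0.766). Mal had other neighbours, Ecscr (0.688), a gene named for endothelial cells, and Ogn (0.685), a gene of a matrix proteoglycan. Pmp2 also stood next to Fdps (0.616), an enzyme of the mevalonate pathway that leads to cholesterol, and to Gm43738 (0.620), which overlaps Fdps and may hold the same reads. Ednrb, the endothelin receptor B gene, was named after its values were seen. It was among the 3 genes with the most negative rho for each of the 5 loci, by the lower value of the 2 plates, here the stronger. That value ran from -0.639 for Pmp2 to -0.808 for Pmp22, where the other plate gave -0.600 and -0.777.

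The third question was how the members varied between cell states. Cells were clustered without any member, and the members' reads were summed per state and plate. Clusters were called proliferating-like, iSC-like and mSC-like from marker lists, and the remaining cluster, led by Lgals3 and Cdkn1c, is called intermediate here. For the proliferating-like state 10 of 10 markers were highest in it, and for the mSC-like state 9 of 10. Of the 9 iSC markers, 3 were highest in the iSC-like state and 6 in the proliferating-like state. With proliferating-like cells left aside, 7 of 9 were highest in the iSC-like state. None of the 10 leading genes of the iSC-like state by fold was on its list. The names were given by these same lists, so the counts describe the clusters and do not test the names. The iSC-like state was led by Cxcl1, a chemokine gene, and Entpd2, and the mSC-like state by Fam178b and H2-DMa, a gene of antigen presentation. In plates 1 and 2 the states held 21 and 21, 82 and 98, 118 and 99, and 104 and 112 wells in the order proliferating-like, iSC-like, intermediate and mSC-like. The clusters come from other genes of the same cells, so p-values measure only how far the sums of a state differed beyond the spread of the plates.

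Ncmap was off in every one of the 180 iSC-like and 42 proliferating-like wells. Its summed reads in the iSC-like state were 20 of 39436676 in plate 1 and 33 of 50434562 in plate 2, or 0.507 and 0.654 CPM. In the intermediate state it stood at 1487 and 1503 CPM, and in the mSC-like state at 4155 and 4568 CPM. Ncmap was on in 66.1% and 70.7% of intermediate wells and in 98.1% and 100% of mSC-like wells, and its median in the wells with it on was 1852 and 1530 CPM in the first and 4111 and 4455 CPM in the second. Both the share of cells and the level in them were thus higher in the mSC-like state. Against the iSC-like state the intermediate sums were 2931-fold (counting interval 1898 to 4799) and 2297-fold (1636 to 3337) higher.

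The Pmp2 locus followed the same order. It stood at 12.1 and 23.6 CPM in the iSC-like state, 692 and 672 CPM in the intermediate state and 3166 and 3566 CPM in the mSC-like state. It was on in 2.44% and 4.08%, 39.0% and 45.5%, and 84.6% and 83.9% of wells of these states. Of the 54 and 46 wells with Ncmap on and Pmp2 off, 38 and 28 were intermediate and 16 and 18 mSC-like. Such cells need not be on the way to turning Pmp2 on. The iSC-like value rested on few cells, since 3 wells held 462 of 476 reads in plate 1 and 941 of 1191 in plate 2. The locus was on in 2 iSC-like wells of plate 1 and 4 of plate 2, at 214 to 1077 CPM, and none of these 6 wells had a read of Ncmap.

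Mbp stood at 4275 and 4340 CPM in the iSC-like state, 17646 and 17828 CPM in the intermediate state and 56794 and 55201 CPM in the mSC-like state. For Pmp22 these sums were 2279 and 2449, 13606 and 12943, and 67374 and 66445 CPM. Both loci were read well above 1000 CPM before the mSC-like state, and Pmp22 covered the wider span, 29.6-fold and 27.1-fold between the iSC-like and mSC-like states against 13.3-fold and 12.7-fold for Mbp. Mal covered the narrowest, with 1663 and 1630 CPM, 2365 and 2124 CPM, and 5397 and 5170 CPM.

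**Figure D4:**
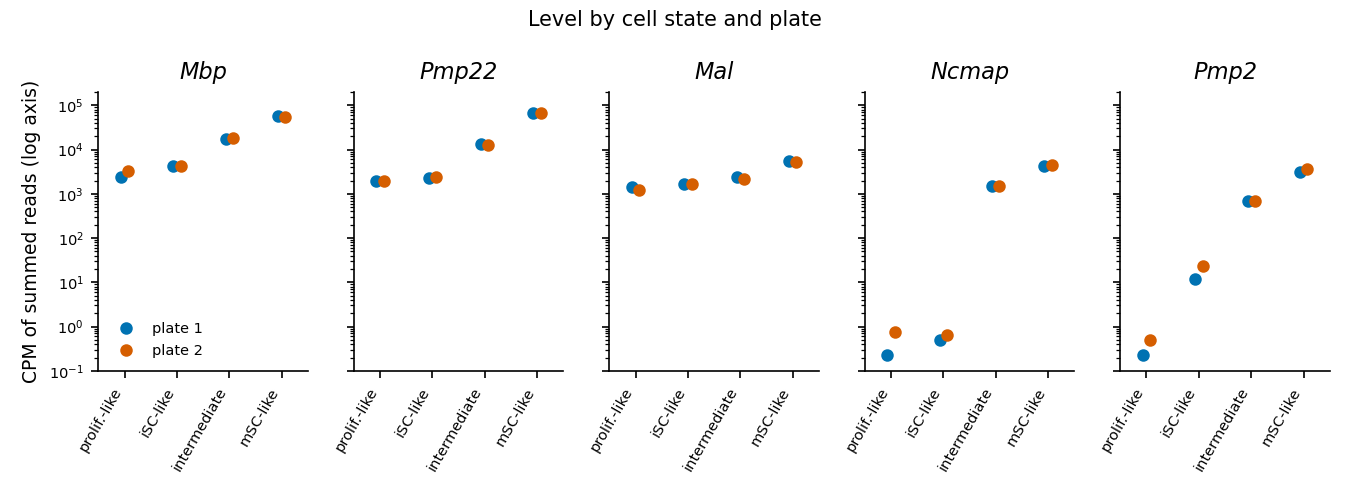
CPM of the reads summed per cell state, on a log axis shared by the 5 panels, for each locus, with 1 point per plate (blue, plate 1; orange, plate 2). All 5 loci are highest in the mSC-like state, and Ncmap and Pmp2 are near or below 1 CPM in the proliferating-like state, where Mbp, Pmp22 and Mal stay above 1000 CPM.

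In edgeR's quasi-likelihood test with Benjamini-Hochberg adjustment over 13891 genes, all 6 members were higher in the mSC-like than in the iSC-like state, where 2.76% of all genes tested were higher. Pmp2 and Gm37389 share reads and count as 1 observation. The log2 changes were 13.26 ± 0.38 (SE) for Ncmap, 7.96 ± 0.38 for Pmp2, 5.22 ± 0.085 for Pmp22, 4.10 ± 0.15 for Mbp and 2.08 ± 0.12 for Mal, with adjusted p from 5.1e-08 for Pmp22 to 6.3e-05 for Mal. The median change over all genes was 0.

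From the iSC-like to the intermediate state 5 of 6 members were higher, where 1% of all genes were. Mal missed the threshold with a log2 change of 0.53 ± 0.12 and an adjusted p of 0.083 by edgeR, and with the plate as a replicate block its adjusted p was 0.038. From the intermediate to the mSC-like state all 6 members were higher, where 0.432% of all genes were. Here the log2 changes were 2.65 ± 0.076 for Pmp22, 2.62 ± 0.30 for Pmp2, 1.97 ± 0.14 for Mbp, 1.86 ± 0.23 for Ncmap and 1.55 ± 0.12 for Mal. The members thus lay closer together in this step than in the first, in which the values were 11.40 ± 0.36 for Ncmap, 5.34 ± 0.34 for Pmp2, 2.58 ± 0.076 for Pmp22 and 2.13 ± 0.14 for Mbp. The sizes in the first step depended on which wells formed the states, since Pmp2 stood at 4.33 when the genes were divided differently for clustering, and Pmp22 at 1.98 and Pmp2 at 4.72 without the 5% of wells with most genes.

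Between proliferating-like and iSC-like cells only Pmp2 and the overlapping Gm37389 passed, both lower in proliferating-like cells, where 1.09% of all genes were lower. Pmp2 had 3 reads of 12960669 in plate 1 and 6 of 12229872 in plate 2, and its ratio to the iSC-like level was 0.0192 (counting interval 0.0039 to 0.056) and 0.0208 (0.0076 to 0.045). Its adjusted p was 0.0016, on an iSC-like level that came mostly from a few wells as given above. Mbp had a log2 change of -0.47 ± 0.13 (adjusted p = 0.12), Pmp22 of -0.17 ± 0.071 (0.30) and Mal of -0.22 ± 0.12 (0.40). The median over all genes in this comparison was -0.11. For Ncmap the proliferating-like sums were 3 and 9 reads, and the ratio to the iSC-like level was 0.456 (counting interval 0.087 to 1.54) in plate 1 and 1.12 (0.47 to 2.40) in plate 2.

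Depth and markers of other cells also moved with the states. The median well held 453222 and 433770 reads in the iSC-like state and 785492 and 712324 in the mSC-like state. The 5 fibroblast markers together had a median of 2320 CPM in iSC-like, 1014 CPM in intermediate and 219 CPM in mSC-like wells, the reverse of the members. Their part in the differences between states was not tested. In the 21 wells with 3 or more fibroblast markers at 5 reads, Ncmap was on in 11, a share near that of all wells.

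Within the intermediate state cells fell on both sides of Ncmap onset. The 40 and 29 intermediate wells with Ncmap off had a median of 1644 and 1475 CPM of Pmp22, close to the iSC-like medians of 1915 and 1978 CPM. The 78 and 70 intermediate wells with Ncmap on had medians of 12723 and 13063 CPM. The intermediate sums are therefore a mixture of cells at a low and a high level of Pmp22. In this state the median rho over the 10 pairs was 0.676 over 118 wells and 0.612 over 99.

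In mSC-like wells, where nearly all had Ncmap on, the graded loci still varied together, with rho of 0.667 and 0.548 for Mbp with Pmp22, 0.577 and 0.447 for Pmp22 with Mal, and 0.542 and 0.392 for Mbp with Mal. The median over all 10 pairs was 0.222 and 0.251. Ncmap and Pmp2 had a rank correlation of rho = -0.313 over 104 wells and -0.394 over 112 wells. Pearson's r of their log2(CPM + 10) was -0.126 and -0.481, so on that scale the inverse relation was weak in plate 1. In the 26 and 28 mSC-like wells with the least Pmp2 (plates 1 and 2), median Ncmap was 4685 and 5390 CPM, and in the 26 and 28 with the most it was 3461 and 4154 CPM. Median Pmp22 was 59203 and 67375 CPM in the wells with the least Pmp2 and 79611 and 76628 CPM in those with the most. Cells rich in Pmp2 thus had somewhat less Ncmap while Pmp22 was no lower. The number of genes detected differed as well, with medians of 3299 and 3626 in the wells with the least Pmp2 and 4672 and 4793 in those with the most, and its part in the relation was not tested.

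Other genes of the myelin sheath were read from a list of 14 that holds no member. Of these, 11 were higher in the mSC-like than in the iSC-like state and none was lower, by the same edgeR fit, with a median log2 change of 3.41, which was the same with Drp2 held at a floor of 3 counts. From iSC-like to intermediate 8 were higher, and from intermediate to mSC-like 4 were (Ugt8a, Cd9, Prx, Pllp). Between proliferating-like and iSC-like cells 3 were lower (Gjb1, Prx, Pllp). Drp2, which encodes a partner of periaxin at the sheath surface, had 0 and 1 reads in the iSC-like sums and 18137 and 15671 in the mSC-like sums (edgeR adjusted p = 0.00049). Gldn, for the node protein gliomedin, had a log2 change of 6.77 ± 1.6 and did not pass (adjusted p = 0.061). Cadm4, an adhesion protein of the internode, had a log2 change of 0.02 ± 0.40 (adjusted p = 0.99 by edgeR). The sums of every member were highest in the mSC-like state.

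The wells left out for few detected genes were set beside the retained ones for Mbp. In the 105 such wells outside the corners Mbp made up 8.68% of all reads, but 5 wells held 70.3% of these Mbp reads. Without the 11 wells in which Mbp exceeded 10% of reads, its share in the other 94 was 0.567%. The median left-out well had 0.447% Mbp and the median retained well 1.36%. The 8 corner wells had 21 Mbp reads, or 0.0132%.

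**Figure D5:**
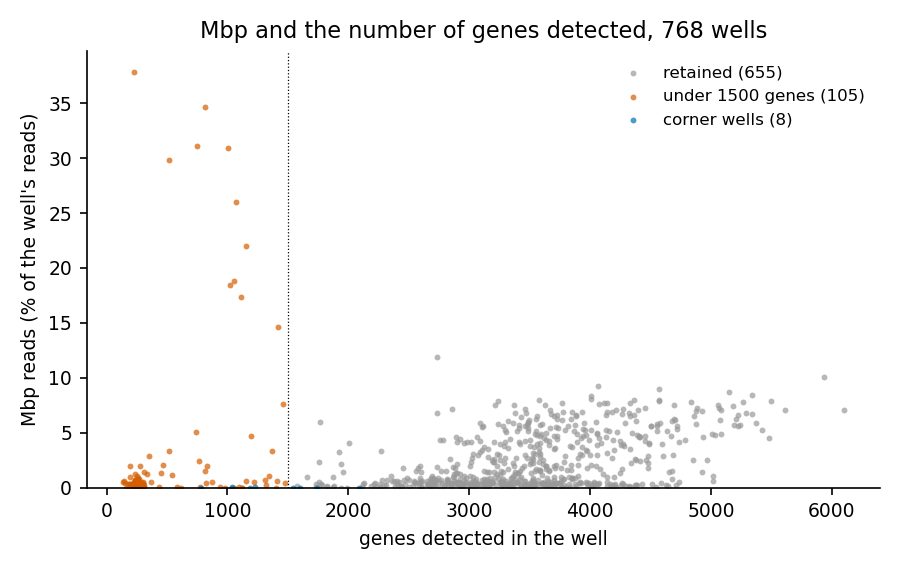
Mbp reads as percent of a well's reads (vertical axis) against the number of genes detected (horizontal axis) in all 768 wells, with the dotted line at 1500 genes. Grey points are the 655 retained wells, orange points the 105 other wells under the line and blue points the 8 corner wells. There are 11 orange points between 10% and 37.9% Mbp, above the highest retained well at 11.9%.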

How the data were processed

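Smart-Seq2 libraries of single sorted cells were read in 768 wells. The authors deposited raw read counts per gene and well, without normalization. Per the submitters' processing notes, reads were aligned with STAR 2.6.1c and counted with featureCounts on GRCm38.p5, while the methods of the paper name a human build. The table was matched to GENCODE vM21 (GRCm38): 25664 of 25700 identifiers matched, and the other 36 hold 0.0821% of reads.

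Wells were grouped by plate (the replicate of the labels), with n = 2. Retained wells had 1500 or more detected genes and were not corner wells, of which 4 passed that minimum. No doublets were removed. CPM are counts divided by a well's total, and the Pmp2 locus took the larger of its rows. A locus was on from 100 CPM. Intervals are exact Clopper-Pearson at 95%, and a count of 0 allows up to 3 counts of the total. Self-tests on simulated data were run. Named likest genes had to have a read in 20% of wells, 3 per locus.

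For cell states, genes other than members were split at random into 2 sets. Cells were clustered on each set with Seurat 5.3.0 in R 4.3.3 (log counts per 100000, variable genes of mean 0.1 to 8 and dispersion over 1, 7 components, resolution 0.4, 30 neighbours), leaving out members and 10 marker genes of the study. Members were tested between states of the first set. Other genes were tested between the states of the set that did not hold them. Reads summed per plate and state (8 sums) were fitted with edgeR 4.0.16 (TMM, filterByExpr, quasi-likelihood, 4 residual degrees of freedom, standard errors implied by F) and adjusted by Benjamini-Hochberg at 0.05 over all genes. States of 1 plate come from the same animals, so plate numbers pair them. The plate deviations of states over 2009 genes of 100 CPM or more correlated with r from -0.033 to 0.193. Alternatives included DESeq2 1.42.0, a replicate block and other thresholds. The members and gene lists were chosen with earlier results of these data known. Of the list of 14 other myelin genes the rule named the 2 largest and 2 smallest changes, of which 3 are given, and the genes named by their calls in the other steps were added after their values were seen. Results that need items withheld for evaluation are not reported here.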

Additional observations from a re-analysis of the deposited data

Results flagged for a closer look

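A few of the wells left out for having fewer than 1500 genes held much Mbp. Outside the corners there were 105 such wells with 7279040 reads in all, of which Mbp made up 8.68%, compared with 0.0132% in the corner wells. Mbp exceeded 10% of reads in 11 of the 105 wells, 9 in plate 1 and 2 in plate 2, and 20% in 7 of them, with a maximum of 37.9%. Among the 655 retained wells 2 exceeded 10% and none 20%. Of the 11 wells, 10 held at least 50000 reads. These 10 wells had 520 to 1420 genes, and their ratio of Mbp to Pmp22 reads ranged from 2.06 to 210 with a median of 9.89. There were 27 left-out wells with at least 50000 reads, and Mbp exceeded 10% in 10 of them, against 2 of 646 retained wells of that depth. The median share of Mbp was 1.49% in the former and 1.37% in the latter. The excess thus lay in part of the left-out wells and did not show in their median. Pmp22 made up 1.94% of the reads of the 105 wells against 3.29% in retained wells, Mal 0.262% against 0.335% and Ncmap 0.179% against 0.230%, while the Pmp2 locus was higher at 0.267% against 0.163%. What set these wells apart was not tested.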

How the results depend on the processing

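With each locus' limit at 5% of its own 95th percentile, 1 locus in place of 3 was on in 90% or more of the wells of both plates. Under the thresholds, filters, thinning and left-out plates tried, the share of wells on ranged from 52.5% to 57.5% for Ncmap and from 32.4% to 45.0% for Pmp2, and Mal stayed at or above 93.4%. Mbp and Pmp22 fell below 94% only under the relative limit, to 78.1% and 57.7%. Left-out plates gave 3 such loci each time. With both plates 7 of 10 pairs of loci had 1 direction. With 1 plate every untied pair counts, so its 9 to 10 pairs cannot be set against these 7. Mbp with Pmp22, and Pmp22 with Mal, had opposite directions in the 2 plates. Over reads of genes other than the members the median rho over pairs was 0.805, against 0.787.

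The members called stayed at 6 in both mSC-like comparisons under every tool, filter, clustering and block run. From iSC-like to intermediate 5 became 6 with DESeq2, with no filter and with the replicate block, each time through Mal. The log2 change of Pmp2 in this step went from 5.34 to 4.33 under another division of the genes for clustering and to 4.72 without the 5% of wells with most genes, where that of Pmp22 went from 2.58 to 1.98. From intermediate to mSC-like Pmp2 went from 2.62 to 3.24 under the other division, and from iSC-like to mSC-like from 7.96 to 7.28 without the 5% of wells. With no filter Mbp also passed between proliferating-like and iSC-like cells. With the block 221, 132, 702 and 204 genes were called in the 4 comparisons (in the order below), and no other member's call changed. DESeq2 called 939, 688, 1817 and 1598 genes where edgeR called 250, 135, 760 and 291 (intermediate against iSC-like, mSC-like against intermediate, mSC-like against iSC-like, proliferating-like against iSC-like), and 531, 350, 1176 and 741 were called with no filter. The causes were not tested. Within plate 2 alone, the log2 ratio of Ncmap between proliferating-like and iSC-like cells was 0.17, the reverse of the fit over both plates, on 9 and 33 reads, and within plate 1 alone it was -1.13, on 3 and 20 reads. Leaving out a plate leaves no spread to test.

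The inverse relation of Ncmap and Pmp2 in mSC-like wells was noticed in these data. In alternatives chosen after seeing it, rho ranged from -0.268 to -0.309 in plate 1 and from -0.311 to -0.391 in plate 2, while Pearson's r of log2 values ranged from -0.097 to -0.219 in plate 1 and from -0.383 to -0.481 in plate 2. Without the 22 wells under 100000 reads, another such alternative, the median rho over pairs was 0.791. Depth limits the low end: 1 read in the shallowest well exceeds 100 CPM, so loci on there rest on few reads.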
